A study of Mus musculus with 12 samples.

Results

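The genes described here are HIF-1 and its response to low oxygen in adipose tissue macrophages (ATMs), namely Hif1a, Egln1, Egln3, Vegfa, Adm, Pdk1, Bnip3, P4ha1, Ndrg1 and Ankrd37. They were taken by gene name, and all 10 had a row among the 15393 genes of the deposited expression table. These genes, and the gene lists and markers below, were chosen with earlier results of these data known. Counts set beside the share of all genes are therefore descriptive. RNA was sequenced from CD45+ CD11b+ F4/80+ ATMs, sorted from the stromal vascular fraction (SVF) of adipose tissue of C57BL/6 mice. The 4 groups were miR-146a-/- mice on a high-fat diet (HFD), wild-type (WT) mice on HFD, miR-146a-/- mice on normal chow (NCD) and WT mice on NCD. Each group had 3 libraries, and each library held pooled cells of 3 mice, so that the spread between libraries is that between pools and not between single animals. The mice went onto their diet at 6 weeks of age, stayed on it for 14 weeks and were 20 weeks old at harvest. For these libraries the study names a Teklad chow (Envigo) as NCD and a Research Diets product as HFD. Fat content and other differences between these products cannot be told apart. miR-146a is absent from every tissue of the miR-146a-/- mice, not only from macrophages, and the study used female and male mice, mostly showing its female cohorts, without naming the sex of the mice behind these libraries. The study asked how this microRNA, a brake on NF-kB signaling, acts on inflammatory and metabolic gene expression in ATMs of lean and obese mice.

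HIF-1 is a transcription factor made of an oxygen-labile subunit, encoded by Hif1a, and a stable partner, ARNT. With oxygen present, prolyl hydroxylases of the EGLN family modify HIF-1 alpha so that the VHL ubiquitin ligase marks it for degradation. When oxygen is scarce, or when macrophages are activated by inflammatory signals, HIF-1 alpha accumulates and switches on genes for blood vessel growth, glycolysis and mitochondrial adaptation, while NF-kB also drives transcription of Hif1a itself. Most control of HIF-1 alpha is therefore on the protein, which RNA-seq does not measure.

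HIF-1 binds a short core, ACGTG or GCGTG, and this core was searched on both strands of RefSeq promoters (GRCm38.p6, 250 bases before to 50 after the start site). The core is part of the E-box CACGTG, which is then counted once on each strand. Of the 10 genes 9 matched a RefSeq promoter, Ndrg1 not, and they had 11 promoters between them. The core was found in 9 of these 11 promoters (81.8%), against 43.8% of all 32851 promoters of the same length. It occurred at least 2 times in 72.7% of the members' promoters and in 20.6% of all. Most of these genes are known for such elements, so the share describes the choice of genes. The windows below belong to the genes on which the expression results turn, Hif1a and Vegfa for diet and Pdk1, Egln3 and Ankrd37 for a single library that stood apart. Capitals mark the core on the strand as read 5′ to 3′ along the gene, and CACGT or CACGC is the core on the opposite strand.
Hif1a: tggctgagagcaACGTGggctggggtgggg
Hif1a, upstream: cacacagacaagCACGTgagcggggcagct
Vegfa, internal start: aagccctggagtGCGTGcccacgtcagaga
Vegfa, internal start, overlapping: ggagtgcgtgccCACGTcagagagcaacat
Pdk1: ccgcctacatggGCGTGtctttaaccaggg
Pdk1, at the start site: ccgcctacggggGCGTGgttccagcgaggg
Egln3: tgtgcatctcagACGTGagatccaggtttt
Ankrd37: cagtgtttgggtACGTGaggccgcagcggg
These windows lie at chr12:73907785-73907814 and chr12:73907720-73907749 for Hif1a (plus strand), chr17:46025364-46025393 and chr17:46025357-46025386 for Vegfa (minus strand), chr2:71873134-71873163 and chr2:71873210-71873239 for Pdk1 (plus strand), chr12:54204086-54204115 for Egln3 and chr8:45999839-45999868 for Ankrd37 (both minus strand). The promoter at the outer start of Vegfa held no core within its 300 bases, nor did a second promoter listed for Pdk1. Both Hif1a windows belong to its only matched promoter, chr12:73907617-73907916, which lies within the span listed for the gene in the expression table. That span starts at chr12:73901375, and its outer start was not searched. A match is a run of letters and does not show binding.

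The microRNA deleted in these mice acts through its seed, bases 2 to 8 of the mature strand, capitalised in the RefSeq sequence of miR-146a-5p (chr11:43374435-43374456, minus strand, GRCm38.p6), which is shown because the genotype removes it.
miR-146a-5p: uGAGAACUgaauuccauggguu
The site that pairs with this seed, AGTTCTC, was found in the longest annotated 3′ UTR of 0 of the 10 genes. It was present in 11.1% of the 21037 genes with an annotated 3′ UTR. None of the genes described here carried a full seed match, which leaves shorter matches and other regions unsearched. Expression at the miR-146a locus itself was not analysed here, so the genotype was taken from the labels.

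The libraries held 9998868 to 11559282 reads counted to genes, and the macrophage markers Ptprc, Itgam, Emr1 (F4/80) and Csf1r were high in all 12. The summed level of 10 macrophage markers lay between 11545 and 13348 FPKM (fragments per kilobase of transcript, scaled to the reads of the library) in every library. One library stood apart. In miR-146a-/- HFD replicate 1 the 12 neutrophil markers summed to 19600 FPKM, against 642 and 609 FPKM in the other miR-146a-/- HFD libraries and 143 to 192 FPKM in WT HFD libraries. On NCD this sum was 718 to 1770 FPKM in miR-146a-/- libraries and 207 to 259 FPKM in WT libraries, so it was above WT in all miR-146a-/- libraries on both diets. Of the 12 markers Mmp9 went the other way on HFD, with 89.6 FPKM in miR-146a-/- and 103 FPKM in WT libraries on average. On NCD it averaged 118 FPKM in miR-146a-/- and 94.0 FPKM in WT libraries. The neutrophil markers Ngp, Camp and Ly6g were listed at 0 in 4, 6 and 3 libraries. miR-146a-/- HFD replicate 1 was also the highest of all libraries for 21.7% of the 12119 genes tested, where the other libraries were so for 3.72% to 10.4%. Results that rest on it are given with and without it.

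Transcripts of Hif1a and Vegfa were lower on HFD than on NCD, and no library of one diet reached into the range of the other. Hif1a averaged 40.1 ± 3.66 FPKM over the 6 HFD libraries and 52.7 ± 4.91 FPKM over the 6 NCD libraries (SD, both genotypes), a ratio of 0.761. Vegfa, the gene for the principal growth factor of blood vessels, averaged 3.23 ± 0.801 FPKM on HFD and 7.26 ± 1.59 FPKM on NCD, a ratio of 0.445. Of the 12119 genes tested, 2.26% were likewise lower in all 6 HFD libraries than in any NCD library. Averaged over the genotypes, limma gave log2 fold changes of -0.38 for Hif1a (standard error 0.067, adjusted p = 0.0106) and -0.96 for Vegfa (standard error 0.14, adjusted p = 0.00391), where p-values were adjusted over all genes tested with a threshold of 0.05. These 2 genes were the only ones of the 9 tested that passed in this comparison, both lower, against 3.56% of all genes that passed as lower, and 5 of the 9 had an unadjusted p under 0.05, against 19.0% of all genes. Both passed in all 21 alternative analyses of this comparison, with adjusted p between 0.00126 and 0.0351 for Hif1a and between 0.000414 and 0.0153 for Vegfa.

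**Figure D1:**
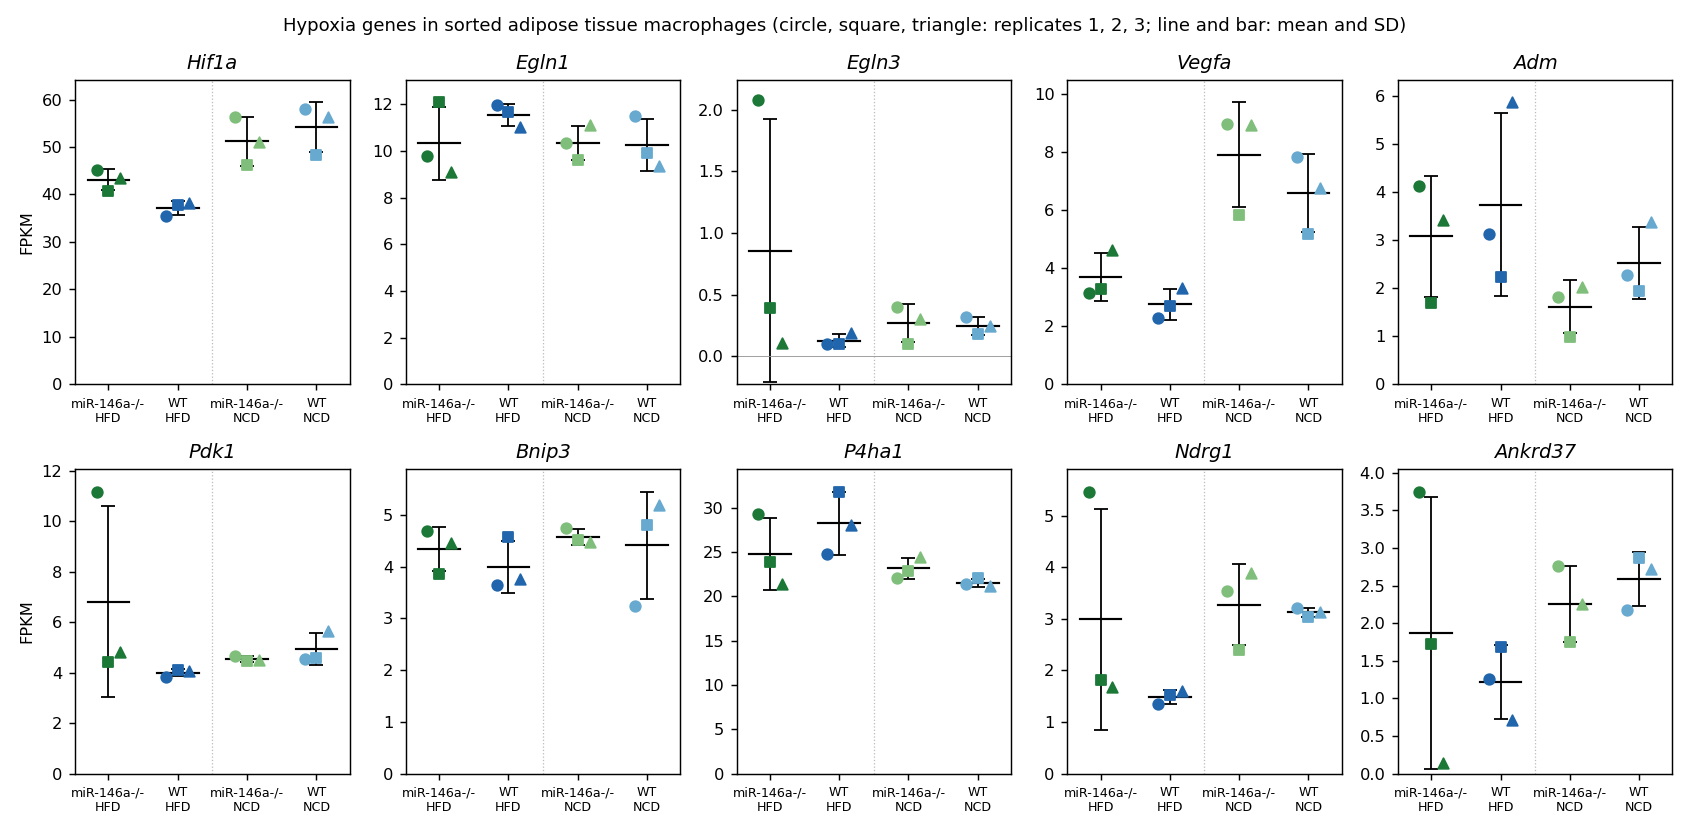
Expression of the 10 genes in FPKM (vertical axes, each starting at or below 0) in every library of the 4 groups, with circles, squares and triangles for replicates 1, 2 and 3, and a line and bar for the mean and SD of 3 libraries. Hif1a and Vegfa are lower in all HFD libraries than in all NCD libraries, whereas Egln3, Pdk1, Ndrg1 and Ankrd37 are highest in miR-146a-/- HFD replicate 1.

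Hif1a (ENSMUSG00000021109, chr12:73901375-73947530, plus strand, mm10) was the most abundant of the 10 genes, with 2252 to 3592 reads per library. The miR-146a-/- HFD libraries held 45.1, 40.7 and 43.5 FPKM and the WT HFD libraries 35.6, 37.8 and 38.2 FPKM. The miR-146a-/- NCD libraries held 56.4, 46.1 and 51.1 FPKM and the WT NCD libraries 58.1, 48.3 and 56.3 FPKM. In order of level, WT NCD and miR-146a-/- NCD libraries overlapped at the top, miR-146a-/- HFD libraries came next, and WT HFD libraries were lowest without overlap. The fall on HFD was called in WT ATMs, where limma gave -0.53 on the log2 scale with a standard error of 0.094 (adjusted p = 0.0168). In miR-146a-/- ATMs it was -0.24 with the same standard error (adjusted p = 0.304) and did not pass, although all 3 HFD libraries lay below all 3 NCD libraries. The difference between these diet effects, 0.29 on the log2 scale (95% interval -0.0048 to 0.58, adjusted p = 0.414), did not pass either, so the diet effect on Hif1a is not shown to differ between genotypes.

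Vegfa (ENSMUSG00000023951, chr17:46016993-46032377, minus strand) was measured from 111 to 426 reads per library. It stood at 3.16, 3.28 and 4.64 FPKM in miR-146a-/- HFD libraries and at 2.27, 2.70 and 3.33 FPKM in WT HFD libraries. It stood at 8.97, 5.84 and 8.96 FPKM in miR-146a-/- NCD libraries and at 7.84, 5.19 and 6.78 FPKM in WT NCD libraries. Both HFD groups overlapped each other, as did both NCD groups. Only the diets did not overlap, and the step between them, from 4.64 to 5.19 FPKM, was narrower than some steps within a diet, such as 3.33 to 4.64 FPKM on HFD. The change was called in WT ATMs, where limma gave -1.01 on the log2 scale with a standard error of 0.19 (adjusted p = 0.0221). In miR-146a-/- ATMs the estimate was -0.92 with the same standard error, and its adjusted p = 0.0612 in limma missed the threshold. It passed there in 5 of 22 alternative analyses, over a range of adjusted p from 0.00869 to 0.244. The difference between the diet effects was 0.088 (95% interval -0.51 to 0.69, adjusted p = 0.922).

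In WT ATMs Hif1a and Vegfa were the only 2 of the 9 tested genes to pass for diet, both lower, against 2.15% of all genes tested that passed as lower. Ndrg1 and P4ha1 also had an unadjusted p under 0.05, which makes 4 of 9 against 19.1% of all genes. In 5 of the 9 (Hif1a, Vegfa, Ndrg1, Ankrd37 and Pdk1) all WT HFD libraries lay below all WT NCD libraries, and in 1 (P4ha1) above, where 15.7% of all genes lay below and 14.6% above. Neither passed when WT HFD replicate 1 or 2, or WT NCD replicate 1 or 3, was left out, with adjusted p of 0.0603 to 0.0796 for Hif1a and 0.0794 to 0.0959 for Vegfa in limma. In miR-146a-/- ATMs 0 of 9 passed in limma, where 2 (Hif1a and Vegfa) had an unadjusted p under 0.05 and limma voom on recovered reads called 1 (Vegfa). In that comparison 0.759% of all genes passed and 13.4% had an unadjusted p under 0.05. Hif1a and Vegfa were also the only 2 whose miR-146a-/- HFD libraries all lay below the miR-146a-/- NCD libraries, as 11.7% of all genes did. The summed level of adipocyte markers moved with diet as well. All 6 markers were detected in every library, and their sum was 14.0 to 22.7 FPKM in miR-146a-/- HFD, 17.4 to 32.8 FPKM in WT HFD, 38.7 to 92.7 FPKM in miR-146a-/- NCD and 33.4 to 60.1 FPKM in WT NCD libraries. Of the 6, Lep went the other way, with 2.25 FPKM in miR-146a-/- HFD and 1.37 FPKM in WT HFD against 1.15 FPKM in miR-146a-/- NCD and 0.798 FPKM in WT NCD libraries on average. Cfd made up most of the sum on NCD, with 5.18 FPKM in miR-146a-/- HFD and 10.5 FPKM in WT HFD against 35.1 FPKM in miR-146a-/- NCD and 29.5 FPKM in WT NCD libraries. The sum of 8 endothelial markers was 6.85 to 21.7 FPKM on HFD and 4.89 to 22.6 FPKM on NCD, and that of 8 fibroblast and preadipocyte markers 240.1 to 805.6 FPKM on HFD and 285.7 to 813.4 FPKM on NCD, so that both overlapped between diets. The part of adipocyte RNA in the Vegfa and Hif1a results was not tested. In RNA from sorted pools, fewer cells that express a gene and less of its RNA per cell cannot be told apart.

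Of the oxygen sensors among these genes, Egln1 gave no called change and Egln3 was too low to be tested. Egln1 (ENSMUSG00000031987, chr8:124908596-124949254, minus strand), the prolyl hydroxylase that sets HIF-1 alpha levels in most cells, ranged from 9.12 to 12.1 FPKM over the 12 libraries. It averaged 10.3 ± 1.56 FPKM in miR-146a-/- HFD, 11.6 ± 0.474 FPKM in WT HFD, 10.3 ± 0.735 FPKM in miR-146a-/- NCD and 10.3 ± 1.11 FPKM in WT NCD libraries (SD, n = 3 each). All 4 groups overlapped, and the diet effect averaged over genotypes was 0.076 on the log2 scale (95% interval -0.092 to 0.25, adjusted p = 0.65 in limma).

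Egln3 (ENSMUSG00000035105, chr12:54178981-54203860, minus strand), a prolyl hydroxylase that is itself a HIF-1 target, was close to the detection limit and was not tested, since its mean of 0.376 FPKM was under the minimum of 1 FPKM. The miR-146a-/- HFD libraries held 62, 12 and 3 reads and the WT HFD libraries 3, 3 and 5 reads. The miR-146a-/- NCD libraries held 11, 3 and 9 reads and the WT NCD libraries 9, 5 and 7 reads. All values but that of miR-146a-/- HFD replicate 1, at 2.08 FPKM, lay between 0.0988 and 0.401 FPKM, and at this depth no order among the remaining libraries can be read.

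Of the genes for metabolic adaptation, Pdk1 (ENSMUSG00000006494, chr2:71873224-71903858, plus strand) encodes a kinase that keeps pyruvate out of the mitochondrial acetyl-CoA pool. It stood at 11.2, 4.40 and 4.84 FPKM in miR-146a-/- HFD libraries and at 3.83, 4.10 and 4.06 FPKM in WT HFD libraries. On NCD it stood at 4.68, 4.46 and 4.49 FPKM in miR-146a-/- libraries and at 4.55, 4.58 and 5.66 FPKM in WT libraries. All miR-146a-/- HFD libraries lay above all WT HFD libraries, by a wide gap in replicate 1 and a narrow one in replicates 2 and 3. The genotype effect on HFD was 0.54 on the log2 scale (standard error 0.24, adjusted p = 0.283 in limma), and it was 0.17 (adjusted p = 0.485) without replicate 1. Over the 22 alternatives none called it.

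Bnip3 (ENSMUSG00000078566, chr7:138890836-138909519, minus strand) encodes a mitochondrial outer membrane protein that promotes mitophagy. It averaged 4.33 ± 0.428 FPKM in miR-146a-/- HFD, 3.99 ± 0.505 FPKM in WT HFD, 4.58 ± 0.155 FPKM in miR-146a-/- NCD and 4.41 ± 1.03 FPKM in WT NCD libraries. All groups overlapped, with a diet effect of -0.085 on the log2 scale (95% interval -0.30 to 0.13) averaged over genotypes.

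P4ha1 (ENSMUSG00000019916, chr10:59323296-59373304, plus strand) encodes the catalytic subunit of collagen prolyl 4-hydroxylase and, after Hif1a, was the second most abundant of the genes. It stood at 29.3, 23.8 and 21.3 FPKM in miR-146a-/- HFD libraries, 24.8, 31.8 and 28.1 FPKM in WT HFD libraries, 22.1, 22.9 and 24.5 FPKM in miR-146a-/- NCD libraries and 21.4, 22.0 and 21.2 FPKM in WT NCD libraries. The WT HFD libraries were thus all above the WT NCD libraries, opposite to Hif1a, at 0.37 on the log2 scale (standard error 0.12, unadjusted p = 0.00916 in limma) whose adjusted p = 0.115 missed the threshold. It passed with array quality weights (adjusted p = 0.0407) and without miR-146a-/- HFD replicate 1 (adjusted p = 0.0282), the lowest of the 22 alternatives, whose highest was 0.303. Over all 12119 genes the number that passed as higher rose as well, from 100 to 702 with array quality weights and to 469 without that library. In miR-146a-/- ATMs the diet effect was 0.086 (adjusted p = 0.801) and the HFD and NCD libraries overlapped.

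Ndrg1 (ENSMUSG00000005125, chr15:66929321-66969640, minus strand), a stress-responsive gene widely used as a hypoxia marker, stood at 5.46, 1.82 and 1.68 FPKM in miR-146a-/- HFD libraries and at 1.35, 1.52 and 1.61 FPKM in WT HFD libraries. On NCD it stood at 3.55, 2.39 and 3.89 FPKM in miR-146a-/- libraries and at 3.21, 3.04 and 3.13 FPKM in WT libraries. Except in miR-146a-/- HFD replicate 1, every HFD library lay below every NCD library. The share of all genes that do so with that library set aside was not counted, so this order does not set Ndrg1 apart. With all libraries the diet effect averaged over genotypes was -0.47 on the log2 scale (adjusted p = 0.23 in limma). Without miR-146a-/- HFD replicate 1 it was -0.67 (adjusted p = 0.00317), and Ndrg1 then passed as lower on HFD, as it did in WT ATMs alone (log2 fold change -0.73, adjusted p = 0.00929 without that library, 0.19 with it). Leaving out that library also raised the share of all genes that passed as lower, to 6.82% averaged over genotypes and 5.91% in WT. With all libraries kept, Ndrg1 passed with array quality weights, averaged over genotypes (adjusted p = 0.0033) and in WT (adjusted p = 0.0131), and in WT in a fit to the compared groups alone (adjusted p = 0.0129). With array quality weights the genes that passed as lower also rose, from 432 to 1281 of 12119 averaged over genotypes and from 261 to 886 in WT. In the compared groups alone they rose to 497 in WT. The adjusted p of Ndrg1 ranged from 0.00317 to 0.394 over 20 alternatives averaged over genotypes and from 0.00929 to 0.378 over 21 alternatives in WT ATMs.

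Ankrd37 (ENSMUSG00000050914, chr8:45996902-45999867, minus strand), an ankyrin repeat gene known as a direct HIF-1 target, was measured from 2 to 59 reads. Its exons overlap those of Ufsp2 on the opposite strand, and whether the counting used strand is not given in the sources used here, so its values are uncertain. It stood at 3.75, 1.73 and 0.137 FPKM in miR-146a-/- HFD libraries and at 1.25, 1.69 and 0.713 FPKM in WT HFD libraries. On NCD it stood at 2.77, 1.76 and 2.25 FPKM in miR-146a-/- libraries and at 2.17, 2.86 and 2.73 FPKM in WT libraries. Except for miR-146a-/- HFD replicate 1, which had 3.75 FPKM, all HFD libraries lay below all NCD libraries. The nearest of them, replicate 2 of miR-146a-/- HFD and of miR-146a-/- NCD, had 1.73 FPKM (28 reads) and 1.76 FPKM (27 reads), which is within counting error. For this order too, the share of all genes with miR-146a-/- HFD replicate 1 set aside was not counted. The diet effect averaged over genotypes was -0.56 (adjusted p = 0.338 in limma) with all libraries and -0.79 (adjusted p = 0.045) without miR-146a-/- HFD replicate 1. That was the only one of 20 alternatives in which it passed, and the highest adjusted p was 0.514. Without that library 6.82% of all genes passed as lower, against 3.56% with all libraries.

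Adm (ENSMUSG00000030790, chr7:110627669-110629819, plus strand), which encodes the vasodilator peptide adrenomedullin, had higher means on HFD than on NCD in both genotypes, but the libraries overlapped. It averaged 3.08 ± 1.25 FPKM in miR-146a-/- HFD, 3.74 ± 1.90 FPKM in WT HFD, 1.61 ± 0.549 FPKM in miR-146a-/- NCD and 2.53 ± 0.752 FPKM in WT NCD libraries. The counts were 15 to 81 reads per library, and the diet effect averaged over genotypes, 0.49 on the log2 scale (95% interval 0.00044 to 0.98), had an adjusted p = 0.263 in limma.

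None of the 9 tested genes passed the test for genotype on either diet. On HFD 0 of 9 passed in limma and 0 with limma voom on recovered reads, where 0.627% of all genes passed in limma, and 2 (Hif1a and Pdk1) had an unadjusted p under 0.05 against 17.5% of all genes. Their log2 fold changes ranged from -0.19 to 0.56, 6 of the 9 were above 0, and their median was 0.17 against -0.017 over all genes tested. This lean rested in part on miR-146a-/- HFD replicate 1. Without it, Ndrg1 went from 0.56 to 0.14, Pdk1 from 0.54 to 0.17 and Ankrd37 from 0.17 to -0.31. Vegfa and Egln1, in contrast, were lower in that library than the mean of replicates 2 and 3. Hif1a, Pdk1 and Ndrg1 were higher in all 3 miR-146a-/- than in all 3 WT libraries on HFD, as were 8.51% of all genes. Hif1a was 1.16 times the WT level on HFD, with a log2 fold change of 0.21 (95% interval 0.00012 to 0.42, adjusted p = 0.285). Without miR-146a-/- HFD replicate 1 the log2 fold change of Hif1a was 0.18 (adjusted p = 0.444).

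On NCD 0 of the 9 genes passed in limma, 0 had an unadjusted p under 0.05 and limma voom called 0, where 0.124% of all genes passed in limma and 6.68% had an unadjusted p under 0.05. The log2 fold changes ranged from -0.44 (Adm) to 0.23 (Vegfa) with a median of 0.014 against 0.016 over all genes. P4ha1 was the only one higher in all 3 miR-146a-/- than in all 3 WT libraries on NCD, at 1.07 times the WT level, as were 10.4% of all genes. Averaged over both diets 0 of 9 passed in limma and 0 in voom, with 0 at an unadjusted p under 0.05, against 0.413% of all genes that passed and 11.3% at an unadjusted p under 0.05. For the difference between the genotype effects on the 2 diets 0 of 9 passed in limma and in voom and 0 had an unadjusted p under 0.05, and of all genes 0.0% passed and 12.2% had an unadjusted p under 0.05. The smallest adjusted p among the members for that difference was 0.414, for Hif1a. In a simulated version of the HFD genotype comparison, the test found 68 of 98 genes given a fold of 2. It found 37 of 100 given a fold of 1.5, and it also called 8 genes given no change. The simulated reads were drawn for each gene and library separately, around a mean that all libraries shared apart from the genes given a fold. No simulated library could therefore stand apart over many genes as miR-146a-/- HFD replicate 1 did, so these shares may be too high for the real comparison. The ratio of Hif1a on HFD, 1.16, is below both simulated folds.

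**Figure D2:**
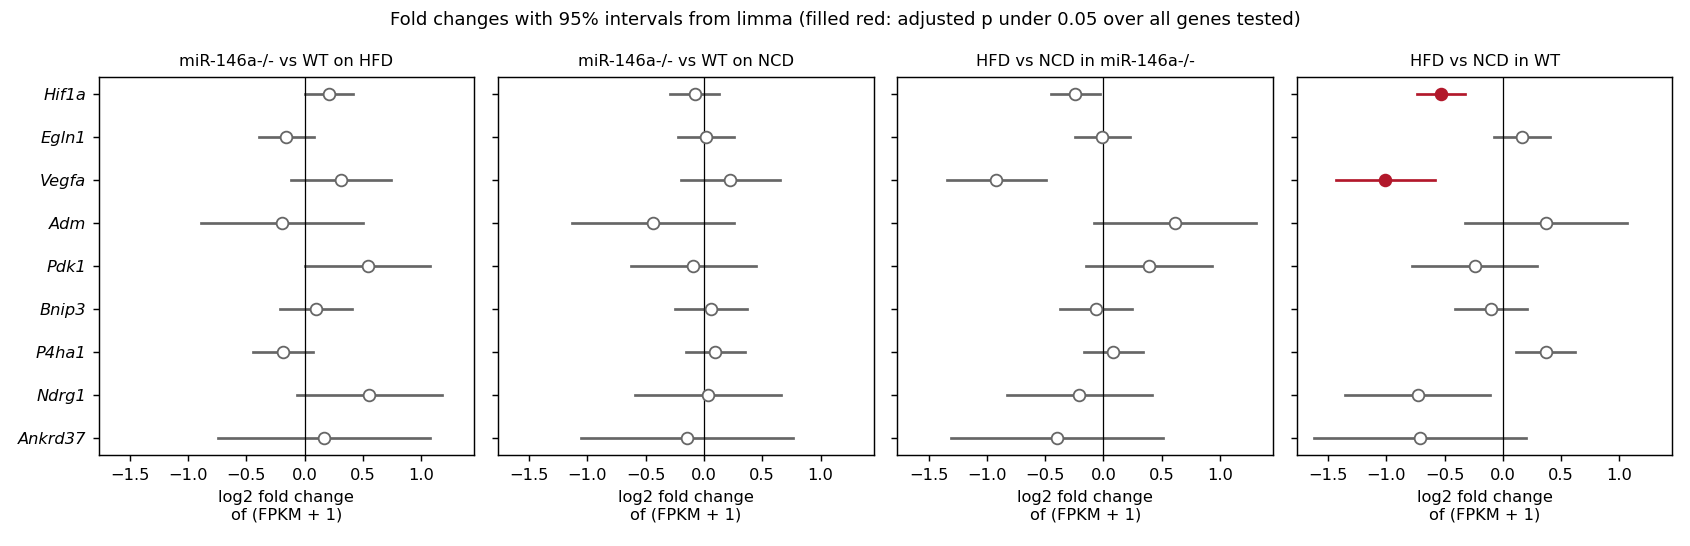
Log2 fold changes of FPKM + 1 (horizontal axes) with 95% intervals from limma for the 9 tested genes, by genotype on each diet (left) and by diet in each genotype (right), with filled red points for an adjusted p under 0.05 over all genes tested. Hif1a at -0.53 and Vegfa at -1.01 for HFD against NCD in WT are the only red points.

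A single library carried the high values of several genes. miR-146a-/- HFD replicate 1 was the highest of the 12 libraries for Ndrg1, Egln3, Pdk1 and Ankrd37, at 3.12, 8.33, 2.42 and 4.02 times the mean of replicates 2 and 3. With 1 FPKM added to both sides these ratios were 2.35, 2.46, 2.16 and 2.46, and 4.15% of all genes tested reached a ratio of 2 on that scale. The core stood in promoters of Egln3, Pdk1 and Ankrd37, but also in promoters of Hif1a, Vegfa, Egln1, Bnip3, Adm and P4ha1. The latter genes were not highest in this library, and Ndrg1 had no matched promoter, so the core does not set the raised genes apart. For Adm and P4ha1 the same library was at 1.62 and 1.297 times the mean of the others. For Hif1a, Egln1 and Bnip3 it was at 1.07, 0.924 and 1.13 times, and for Vegfa at 0.797 times. It is the library with the neutrophil marker sum of 19600 FPKM and a monocyte marker sum of 4087 FPKM against 1612 to 2102 FPKM in the other HFD libraries. The part of neutrophil RNA in its values was not tested.

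**Figure D3:**
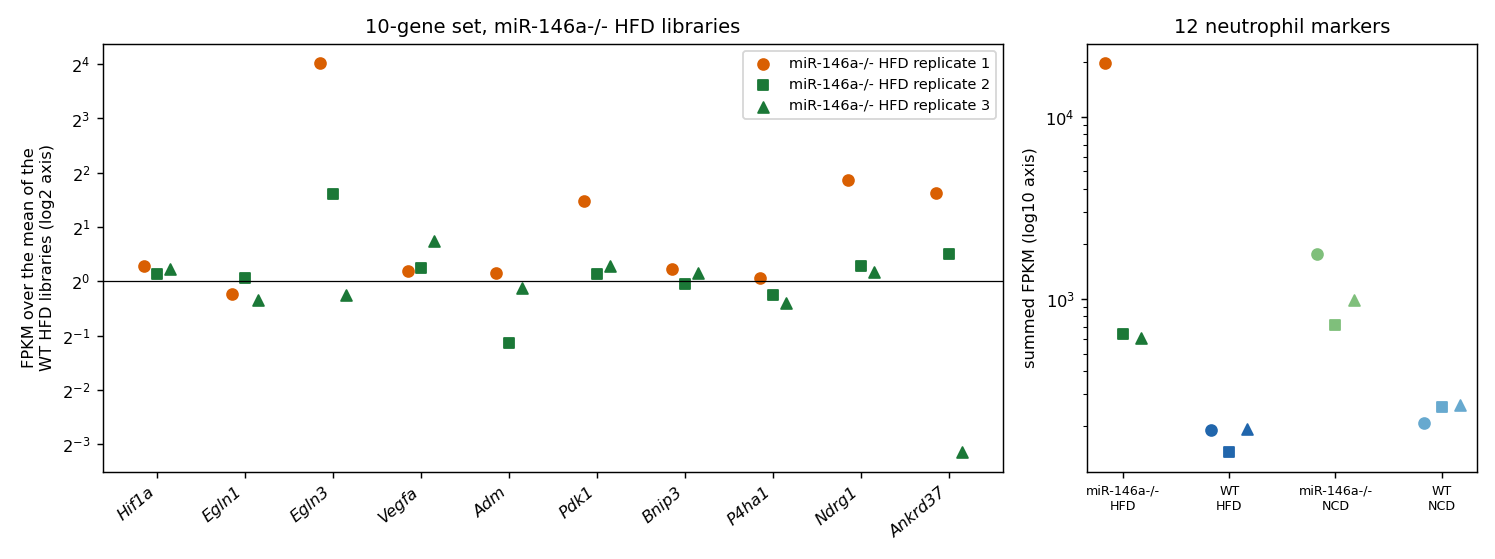
Left, FPKM of the 10 genes in the miR-146a-/- HFD libraries divided by the mean of the WT HFD libraries (log2 axis), with replicate 1 in orange and replicates 2 and 3 in green. Right, summed FPKM of 12 neutrophil markers in every library (log10 axis), where miR-146a-/- HFD replicate 1 reaches 19600 FPKM.

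No other listed part of the HIF switch passed the test for diet or genotype. Of 15 listed pathway components 13 were found and 12 tested. In limma 0 of 12 passed in any of the 7 comparisons, with 0 to 1 at an unadjusted p under 0.05 in each. Of all genes 0.0% to 4.55% passed in these comparisons and 6.68% to 19.1% had an unadjusted p under 0.05, so the count of 0 does not set these components apart. Arnt, the partner of HIF-1 alpha, averaged 9.13 ± 0.54 FPKM in miR-146a-/- HFD, 8.29 ± 0.173 FPKM in WT HFD, 8.41 ± 0.825 FPKM in miR-146a-/- NCD and 8.43 ± 0.687 FPKM in WT NCD libraries. Epas1, the gene for HIF-2 alpha, was near 1 FPKM, with 0.995 ± 0.199 FPKM in miR-146a-/- HFD, 1.05 ± 0.228 FPKM in WT HFD, 1.58 ± 0.492 FPKM in miR-146a-/- NCD and 1.00 ± 0.293 FPKM in WT NCD libraries. Per kilobase, Hif1a was thus far above Epas1 in every group. Vhl, the substrate receptor of the ubiquitin ligase, averaged 7.52 ± 0.328 FPKM in WT HFD and 10.4 ± 1.27 FPKM in WT NCD libraries. Its log2 fold change was -0.41 (unadjusted p = 0.0157, adjusted p = 0.148 in limma). All WT HFD libraries (highest 7.71 FPKM) lay below all WT NCD libraries (lowest 8.94 FPKM), as did 15.7% of all genes. Egln2, a further prolyl hydroxylase, averaged 21.5 ± 2.63 FPKM in WT HFD and 18.5 ± 1.38 FPKM in WT NCD libraries (log2 fold change 0.20, adjusted p = 0.343). Hif1an, the asparaginyl hydroxylase that blocks HIF-1 alpha's coactivator binding, averaged 5.003 ± 0.838 FPKM in WT HFD and 4.78 ± 0.217 FPKM in WT NCD libraries (log2 fold change 0.047, adjusted p = 0.86).

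Most glycolytic HIF targets, like Hif1a and Vegfa, had lower values on HFD than on NCD in WT ATMs. Of the 20 listed, 19 were tested, 16 of the 19 had a log2 fold change below 0, and the median was -0.24 against 0.0062 over all genes. Of the 19, 2 passed, both lower on HFD, as did 2.15% of all genes, and 4 without miR-146a-/- HFD replicate 1, as did 5.91% of all genes. Hk2, the inducible hexokinase that starts glycolysis, averaged 11.49 ± 1.42 FPKM in WT HFD and 17.3 ± 0.609 FPKM in WT NCD libraries, a log2 fold change of -0.55 (adjusted p = 0.0282 in limma). Pfkp, a phosphofructokinase subunit, averaged 14.5 ± 0.612 FPKM in WT HFD and 20.98 ± 2.36 FPKM in WT NCD libraries, a log2 fold change of -0.50 (adjusted p = 0.0472). In miR-146a-/- ATMs 0 of the 19 passed in limma, with 3 at an unadjusted p under 0.05 against 13.4% of all genes, and the median was 0.073 with all libraries but -0.17 without miR-146a-/- HFD replicate 1, where 17 of 19 were below 0 and 1 passed as lower, against 1.22% of all genes. Averaged over genotypes 4 of 19 passed, all lower, namely Hk2, Pfkp, Aldoc and Gapdh, against 3.56% of all genes, and 8 without that library, against 6.82%. Aldoc, an aldolase, averaged 1.15 ± 0.31 FPKM in miR-146a-/- HFD and 1.102 ± 0.175 FPKM in WT HFD libraries, against 2.48 ± 0.35 FPKM in miR-146a-/- NCD and 2.10 ± 0.841 FPKM in WT NCD libraries. Gapdh, an abundant glycolytic enzyme, was listed at only 2.02 to 5.74 FPKM and has many near-identical pseudogene copies, so its values are uncertain.

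For genotype on HFD the glycolytic targets were on the other side, and this rested on 1 library. Of the 19 tested, 17 had a log2 fold change above 0 in miR-146a-/- against WT ATMs with a median of 0.21, and 0 passed in limma, with 1 at an unadjusted p under 0.05 against 17.5% of all genes. Without miR-146a-/- HFD replicate 1, 11 of 19 were above 0 and the median was 0.044. On NCD 9 of 19 were above 0 and the median was -0.022.

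Among other HIF targets, 34 of 45 were tested. For diet in WT ATMs 22 of the 34 were below 0, the median was -0.22, and 2 passed, both lower, against 2.15% of all genes. Ccng2, an atypical cyclin, averaged 8.69 ± 1.09 FPKM in WT HFD and 13.2 ± 0.794 FPKM in WT NCD libraries (a log2 fold change of -0.56, adjusted p = 0.0282 in limma), and Adora2b, an adenosine receptor, 5.80 ± 1.42 FPKM in WT HFD and 10.98 ± 0.338 FPKM in WT NCD libraries (-0.84, adjusted p = 0.0346). Without miR-146a-/- HFD replicate 1, 5 passed as lower and 1 as higher, where the shares of all genes also rose, to 5.91% and 3.87%. Ccng2 and Adora2b also passed as lower averaged over genotypes, against 3.56% of all genes, and without that library 4 genes did so, against 6.82%. Averaged over genotypes, Pdgfb, a growth factor for pericytes and fibroblasts, passed as higher on HFD, with 17.1 ± 4.19 FPKM in miR-146a-/- HFD and 11.6 ± 1.15 FPKM in WT HFD libraries against 10.1 ± 1.28 FPKM in miR-146a-/- NCD and 8.91 ± 1.86 FPKM in WT NCD libraries (0.52, adjusted p = 0.0399), as did 0.982% of all genes. In miR-146a-/- ATMs alone 0 of 34 passed for diet in limma, with 7 at an unadjusted p under 0.05 (13.4% of all genes) and a median of -0.0095. For genotype on HFD 27 of 34 were above 0 with a median of 0.19, and 0 passed (0.627% of all genes), with 10 at an unadjusted p under 0.05 (17.5% of all genes). Without miR-146a-/- HFD replicate 1, 22 of 34 were above 0, the median was 0.15 and 1 passed, against 0.932% of all genes.

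**Figure D4:**
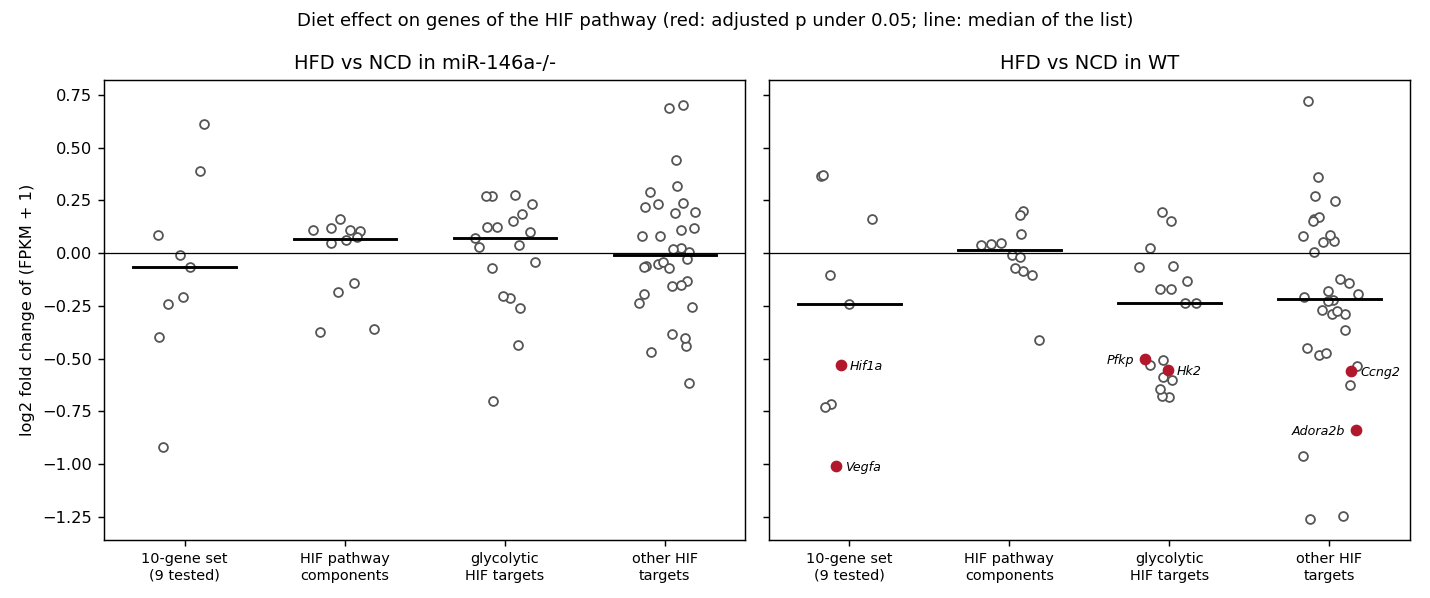
Log2 fold change of FPKM + 1 (vertical axis) for HFD against NCD in miR-146a-/- (left) and WT ATMs (right), for the 9 tested genes of the set and the tested genes of 3 HIF lists, with the median of each as a line and genes with an adjusted p under 0.05 in red. In WT the median of the glycolytic targets is -0.24, and in miR-146a-/- ATMs it is 0.073 with all libraries.

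Among libraries of the same group the 10 genes varied together only in part. Of 45 pairs, 34 had a positive Pearson correlation of their deviations from the group means, with a median r of 0.25, and 0 passed after adjustment by permutation within groups (100000 shuffles, two-sided), with 2 at an unadjusted p under 0.05. The closest pair was Ndrg1 and Egln3, with r = 0.96 (permutation p = 0.0158, adjusted p = 0.523) and rho = 0.92 (permutation p = 0.0104, adjusted p = 0.235). Without the libraries farthest from the median of Ndrg1, miR-146a-/- HFD replicates 1 and 3, r was 0.91, and without that whole group 0.83. With 3 to 12 reads of Egln3 in all libraries but 1, its order among them is within counting error, and these correlations cannot be read as a relation of the genes. Hif1a and Vegfa had r = 0.76 (permutation p = 0.0393, adjusted p = 0.523) and rho = 0.63 (permutation p = 0.0942, adjusted p = 0.39), and r = 0.51 without both farthest libraries. The correlation of Pdk1 with Ndrg1 was r = 0.90 (permutation p = 0.104, adjusted p = 0.531) and rho = 0.71 (permutation p = 0.0731, adjusted p = 0.39), and r was 0.62 without miR-146a-/- HFD replicates 1 and 3 but 0.15 without the whole miR-146a-/- HFD group, so that it rested on that group. Values from 1 library share its depth and its mix of cells.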

How the data were processed

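ATM RNA was sequenced as stranded, ribosomal RNA-depleted libraries with single reads on an Illumina HiSeq. The submitters' notes name Novoalign, mm10 and DESeq2 without versions. The deposited values are FPKM, scaled by the authors to each gene's listed length and to the total of gene-assigned reads. Multiplied back, all 184716 values gave whole reads within 1e-06, which permitted limma voom as an alternative. Values were tested as log2(FPKM + 1) with limma 3.58.1 (trend and robust, statmod 1.5.0, R 4.3.3) in one fit of 4 groups with no replicate block, on the 12119 genes whose mean reached 1 FPKM, with Benjamini-Hochberg adjustment over all of them and a threshold of 0.05. The pseudocount shrinks fold changes of genes near 1 FPKM. Comparisons share libraries, and p-values measure the spread between pools. The test was run on simulated data first.

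The members, lists and markers were chosen with earlier results of these data known. Genes named were all members, list genes that passed (up to 4 per list and comparison), Epas1, Arnt, Hif1an, Egln2 and Vhl. 1 gene of the list of other HIF targets is not reported here. Table starts count from 0 and were converted. Depth limits low genes such as Egln3, since counting error is large at a few reads. Promoters and miRNA came from RefSeq (GRCm38.p6), 3′ UTRs from GENCODE M21. Python 3.11.15, numpy 2.4.6, pandas 2.3.3, scipy 1.17.1 and matplotlib 3.10.9 were used. Results were recomputed with voom, a replicate block, each library left out, array quality weights, a fit to the compared groups alone, a plain eBayes estimate, median-ratio or quantile scaling, a pseudocount of 0.1, and a minimum of 5 FPKM or none.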

Additional observations from a re-analysis of the deposited data

Results flagged for a closer look

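Pdk1 leaned in opposite directions with genotype on the 2 diets. Every miR-146a-/- library on HFD was above the mean of the WT libraries there, with a mean difference of 2.803 FPKM, and every miR-146a-/- library on NCD was below the WT mean, with a mean difference of -0.388 FPKM. The values were 6.80 ± 3.78 FPKM in miR-146a-/- HFD and 4.00 ± 0.148 FPKM in WT HFD libraries, and 4.54 ± 0.118 FPKM in miR-146a-/- NCD and 4.93 ± 0.631 FPKM in WT NCD libraries (SD, n = 3 each). It was singled out by direction alone. The difference between the genotype effects of Pdk1 in limma was 0.63 on the log2 scale (standard error 0.34, adjusted p = 0.484), which did not pass, and it was 0.26 (adjusted p = 0.441) without miR-146a-/- HFD replicate 1. On NCD the lower value rested on WT NCD replicate 3, at 5.66 FPKM, without which the log2 fold change of Pdk1 between genotypes was -0.0065, against -0.093 with it.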

How the results depend on the processing

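Of 1331 values of single genes under 22 alternatives, 1259 kept their direction and their side of the threshold, 13 came to pass, 8 no longer passed and 51 changed sign, none of them called. For HFD against NCD in miR-146a-/- ATMs the count of members called was 0, and 1 (Vegfa) with array quality weights and limma voom and, leaving out 1 library each, 0 to 1 (1 without miR-146a-/- HFD replicate 3 or miR-146a-/- NCD replicate 2). In WT ATMs it was 2, 3 (Ndrg1 added) in a fit to the compared groups alone, and 4 (Hif1a, Vegfa, Ndrg1 and P4ha1) with array quality weights, and 0 to 4 leaving out 1 library each (0 without WT HFD replicate 1 or 2 or WT NCD replicate 1 or 3, and 4 without miR-146a-/- HFD replicate 1). The share of all genes called moved too, from 2.98% to 6.23% in the compared groups alone, 13.1% with array quality weights, 9.78% when miR-146a-/- HFD replicate 1 was left out, and between 0.71% and 0.957% in the analyses that called 0 members. Averaged over genotypes the count was 2, 3 (Ndrg1 added) with array quality weights, and 2 to 4 leaving out 1 library each, with Ankrd37 and Ndrg1 added without miR-146a-/- HFD replicate 1, while the share of all genes called was 4.55%, 16.3% with array quality weights and 9.79% when that library was left out. The cause of these moves was not tested. At this depth a few reads decide the values of Egln3, Ankrd37 and Adm.

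The replicate numbers did not pair the libraries (correlations of deviations between -0.054 and 0.123). With the replicate number as a block, 1 member (Vegfa, adjusted p = 0.0411) was called for diet in miR-146a-/- ATMs, and the counts in the other comparisons stayed at 0 or 2.

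Signs changed for small effects. For genotype on HFD, Ankrd37 was -0.079 with a pseudocount of 0.1 and -0.14 with voom, and ranged from -0.31 to 0.72 leaving out 1 library each, as did Adm from -0.43 to 0.11. On NCD, Bnip3 was -0.019 with array quality weights, Ndrg1 -0.024 with quantile normalization, and Egln1 -0.0098 with median-ratio scaling and -0.0070 with quantile normalization. Leaving out 1 library each gave -0.11 to 0.17 for Bnip3, -0.071 to 0.19 for Ndrg1 and -0.043 to 0.092 for Egln1. For diet in miR-146a-/- ATMs, Bnip3 was 0.018 with quantile normalization, and Egln1 was 0.051 with median-ratio scaling, 0.026 with quantile normalization and 0.12 with array quality weights. Leaving out 1 library each gave -0.62 to 0.016 for Ndrg1, -0.035 to 0.18 for P4ha1, -0.12 to 0.068 for Egln1 and -0.88 to 0.16 for Ankrd37, and in WT ATMs -0.27 to 0.0026 for Bnip3. For the difference between genotype effects, Adm was -0.035 with array quality weights, and leaving out 1 library each gave -0.093 to 0.23 for Vegfa, -0.069 to 0.20 for Bnip3 and -0.16 to 0.87 for Ankrd37. For genotype averaged over diets, Egln1 was 0.015 with array quality weights, and Ankrd37 was -0.14 with a pseudocount of 0.1, -0.048 with array quality weights and -0.18 with voom. Leaving out 1 library each gave -0.0037 to 0.13 for Bnip3, -0.10 to 0.0061 for P4ha1 and -0.23 to 0.29 for Ankrd37. For diet averaged over genotypes, Pdk1 was -0.12 with array quality weights and -0.11 to 0.18 leaving out 1 library each.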
